A study of Mus musculus with 13 samples.

Results

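Collagens are the structural proteins of the extracellular matrix, each molecule a helix wound from intertwined alpha chains that separate Col genes encode. Fibrillar types bear tension in the myocardial interstitium, type IV forms the sheet that underlies cardiomyocytes and endothelium, network and type VI collagens fill the space around cells and vessels, and fibril-associated types decorate fibre surfaces. In the heart most fibrillar collagen is made by fibroblasts, and it accumulates in fibrosis. The transcripts of 42 collagen chains are described here, taken by gene symbol from the 26264 genes of the deposited tables. They comprise 11 fibrillar chains, 3 network chains, 6 chains of type IV, 3 chains of types VII, XV and XVIII of the basement membrane zone, 8 fibril-associated (FACIT) chains, 5 chains of type VI, 4 transmembrane chains and 2 others.

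Right ventricles were taken from mice with the knock-in allele Dsg2 F536C (7 libraries) and from wild-type mice (6 libraries), and their poly(A) RNA was sequenced. Desmoglein 2, the product of Dsg2, is a desmosomal cadherin of cardiomyocytes, and the series concerns fibrosis and arrhythmia in a model of arrhythmogenic cardiomyopathy. No treatment, zygosity, strain, sex, age or litter is given in the labels, and none says whether each library came from its own animal. The p-values therefore reflect only how these samples scatter, which may be technical. Totals were 14498336 to 29848597 reads per library, so 3 reads were worth 0.101 to 0.207 CPM, a read count scaled to the size of its library. Cardiomyocyte markers were abundant in every library, with 8 of them summing to between 20744 and 41031 CPM in knock-in and between 48937 and 70911 CPM in wild type. Dsg2 itself averaged 47.7 ± 10.3 CPM in knock-in and 100.9 ± 11.2 CPM in wild type (SD, n = 7 and 6), with no overlap.

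A set of 3 knock-in libraries, numbered 4, 5 and 6, differed from the remaining 10 in kind. Values that were not whole numbers made up 10.2% to 10.7% of all genes in them, against 3.07% to 3.79% in the rest, and the keratin Krt8 stood at 969 to 1214 CPM of library totals, against at most 7.23 CPM. A list of 8 epithelial markers summed to 2144 to 3319 CPM in knock-in 4, 5 and 6, to 12.0 to 27.5 CPM in knock-in 1, 2, 3 and 7, and to 8.01 to 28.6 CPM in wild type, where Krt5 was listed at 0 throughout. All wild-type libraries lay with the other 10, so among these 3 the genotypes could not be compared. Every test of a collagen chain or ratio is therefore given with 13 libraries and with the 10 left when knock-in 4, 5 and 6 are set aside. For other genes, counts of calls are given in both sets and some single values with 13 libraries alone. Among the collagen chains, the values of knock-in 4 and 5 were all whole, and 1 of 42 was not in knock-in 6.

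Collagen transcripts as a whole were more abundant in knock-in ventricles. In TPM, which scales reads by transcript length and library and so allows genes to be compared, the 42 chains summed to 777 to 1329.9 TPM in knock-in 1, 2, 3 and 7, to 1279.96 to 3188 TPM in knock-in 4, 5 and 6, and to 317 to 439 TPM in wild type. They took 0.340% to 0.578% of reads in knock-in 1, 2, 3 and 7, 0.516% to 1.24% in knock-in 4, 5 and 6, and 0.163% to 0.208% in wild type. No knock-in library overlapped wild type on either measure. In tissue RNA, more collagen-producing cells and more transcript per cell cannot be told apart.

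Of the 42 chains, 35 passed the filter on low counts and were tested, and 7 did not (Col2a1, Col24a1, Col10a1, Col9a1, Col6a5, Col17a1 and Col26a1). With 13 libraries, 24 chains rose, 1 fell and 10 were not called at an adjusted p under 0.05 (edgeR quasi-likelihood test, Benjamini-Hochberg adjustment over all tested genes); over all genes 23.6% were called higher and 21.0% lower. With 10 libraries, 27 rose, 1 fell and 7 were not called, against 22.3% and 21.3% of all genes. Rises were shared by both sets for 23 chains. Below, a pair of fold changes with no set named gives the one with 13 libraries first and the one with 10 next. Col7a1 was called with 13 libraries only, and Col4a4, Col4a5, Col4a6 and Col15a1 with 10 only. Every knock-in library lay above every wild-type library for 17 tested chains with 13 libraries, where 8.60% of all genes did, and for 22 with 10 libraries, where 14.8% did.

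The median log2 fold change of the 35 tested chains was 0.90 with 13 libraries, against 0.08 over all tested genes, and 0.79 with 10, against 0.02. These counts and medians leave out the chains below the filter. Of those, Col2a1 reached the level the filter asks for in knock-in 5 and 6 alone, and Col10a1 in knock-in 4, 5 and 6 alone. Among tested chains, 6 had fewer than 6 wild-type libraries above that level: Col9a2 none, Col11a1 1, Col22a1 3, Col9a3 4, and Col7a1 and Col25a1 5 each. Col9a2 and Col11a1, tested through their knock-in libraries, had to be higher there. With 13 libraries the other 4 also needed some knock-in libraries to pass, as did Col22a1 with 10. Scaling by library totals in place of TMM moved the median of all genes to 0.33 and 0.26, and the calls over all genes to 6110 higher and 1661 lower with 13 libraries (3442 and 3060 with TMM) and to 6049 and 1528 with 10 (3241 and 3099 with TMM). A log2 fold change of at least 1 among the chains that rose was seen for 15 with 13 libraries, where 10.2% of all genes had one, and for 14 with 10, where 5.76% did. Under every alternative tried, in both sets, 16 of the 23 chains called higher in both and the 1 called lower kept their calls.

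**Figure D1:**
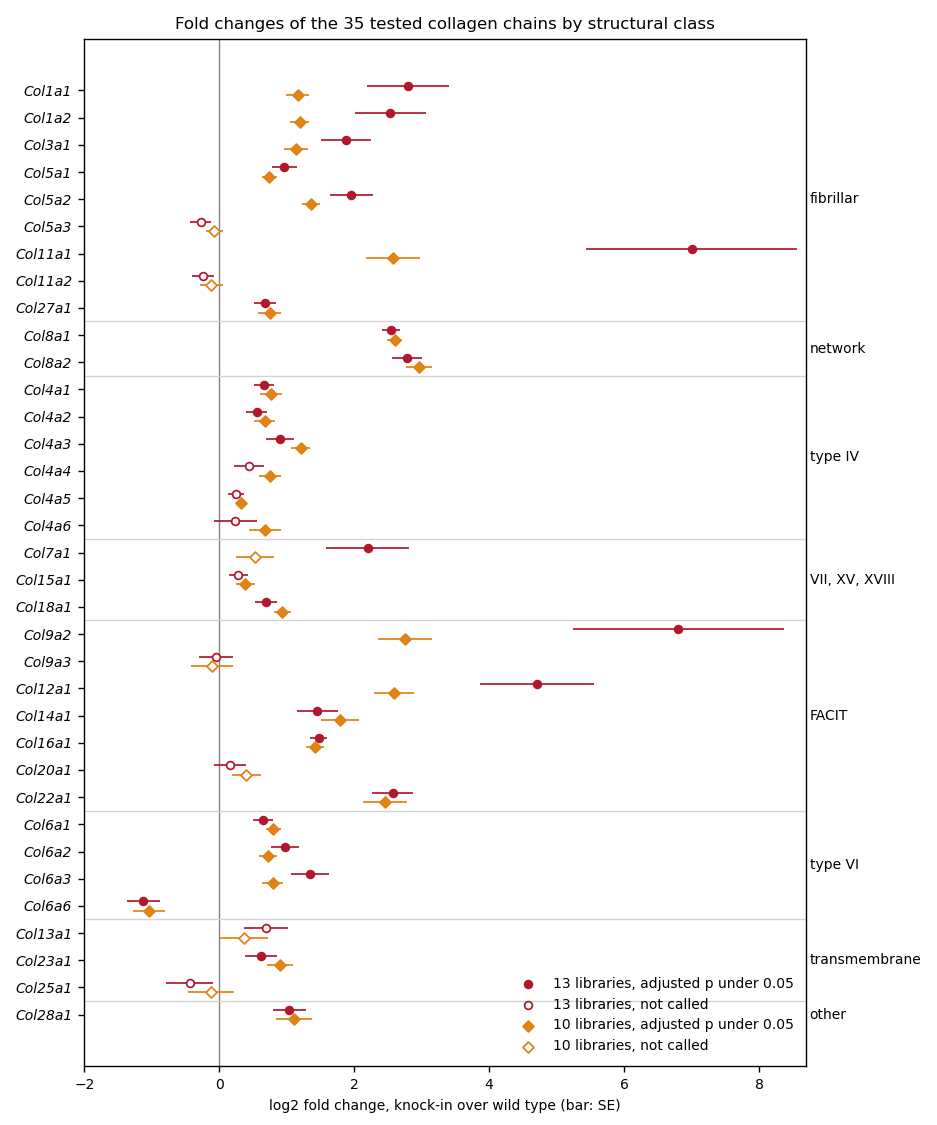
Log2 fold change, knock-in over wild type, of the 35 tested collagen chains by structural class, with the SE as a bar, for 13 libraries (circles) and for 10 libraries without knock-in 4, 5 and 6 (diamonds); filled symbols passed an adjusted p of 0.05. Col8a1 and Col8a2 sit at 2.55 to 2.96 in both sets with short bars, whereas Col11a1, Col9a2 and Col12a1 span 4.70 to 7.00 with 13 libraries and 2.57 to 2.76 with 10.

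The 250 bases upstream of the annotated start are shown for Col8a1, Col8a2 and Col16a1, the 3 chains with the smallest p among 13 libraries, for Col1a2, a main fibrillar chain, and for Col6a6, the chain that fell. They are from RefSeq on GRCm38.p6, an older build than the one used for the counts, and are written 5′ to 3′ on the strand of the gene. Both strands were searched for 4 motifs, and capitals mark each match to GGGCGG, the GC box core, to CCAAT, the box of that name, to TATAAA, the TATA box, or to TGANTCA, the AP-1 element. A match on the opposite strand reads as its reverse complement.
Col8a1 (chr16:57754738-57754987, minus strand): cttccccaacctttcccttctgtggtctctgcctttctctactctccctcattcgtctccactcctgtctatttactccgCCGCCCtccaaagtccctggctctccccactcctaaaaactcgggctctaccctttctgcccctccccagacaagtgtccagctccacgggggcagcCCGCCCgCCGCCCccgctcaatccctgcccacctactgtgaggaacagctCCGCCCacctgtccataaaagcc
Col8a2 (chr4:126286544-126286793, plus strand): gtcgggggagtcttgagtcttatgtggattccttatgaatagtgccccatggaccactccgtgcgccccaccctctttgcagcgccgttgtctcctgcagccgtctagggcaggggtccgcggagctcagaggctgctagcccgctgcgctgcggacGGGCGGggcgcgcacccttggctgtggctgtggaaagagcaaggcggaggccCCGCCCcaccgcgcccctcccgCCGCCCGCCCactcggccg
Col16a1 (chr4:130047590-130047839, plus strand): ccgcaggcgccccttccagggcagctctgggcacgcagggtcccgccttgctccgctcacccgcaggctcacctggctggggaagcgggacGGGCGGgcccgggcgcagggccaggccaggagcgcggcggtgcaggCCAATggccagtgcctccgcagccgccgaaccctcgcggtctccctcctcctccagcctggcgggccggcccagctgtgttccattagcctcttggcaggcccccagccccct
Col1a2 (chr6:4505368-4505617, plus strand): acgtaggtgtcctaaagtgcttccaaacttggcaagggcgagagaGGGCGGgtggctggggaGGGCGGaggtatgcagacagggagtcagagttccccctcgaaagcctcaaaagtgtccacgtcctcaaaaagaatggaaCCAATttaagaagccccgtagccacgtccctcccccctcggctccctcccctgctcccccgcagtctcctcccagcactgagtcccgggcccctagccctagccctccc
Col6a6 (chr9:105828086-105828335, minus strand): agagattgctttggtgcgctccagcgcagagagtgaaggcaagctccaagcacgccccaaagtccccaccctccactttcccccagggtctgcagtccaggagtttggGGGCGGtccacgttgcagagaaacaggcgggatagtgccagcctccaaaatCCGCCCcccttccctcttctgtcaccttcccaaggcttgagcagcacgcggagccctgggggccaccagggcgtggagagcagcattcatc

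GGGCGG, the core of GC boxes, was found 4 times upstream of Col8a1, 4 times upstream of Col8a2, where the last pair overlap, 1 time upstream of Col16a1, and 2 times upstream of each of Col1a2 and Col6a6. CCAAT occurred 1 time in each of the Col16a1 and Col1a2 windows, and neither TATAAA nor TGANTCA was in any of the 5. Windows of this length were at hand for 33 of the 42 chains (36 windows). GGGCGG was in 58.3% of those and in 32.7% of all 32851 windows in the table. CCAAT was in 33.3% of the collagen windows and 33.9% of all, TATAAA in 13.9% of the collagen windows and 12.4% of all, and TGANTCA in 2.78% of the collagen windows and 6.75% of all. Of the 5 windows shown, that of the chain that fell and those of the 4 that rose all held GGGCGG. The starts of Col4a1 and Col4a2 lie 21 bases apart on opposite strands of chromosome 8, and those of Col4a6 and Col4a5 lie 1343 bases apart on X.

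Fibrillar collagens rose. Of 11 chains, 9 were tested and 7 rose in both sets (Col1a1, Col1a2, Col3a1, Col5a1, Col5a2, Col11a1 and Col27a1), while Col5a3 and Col11a2 were not called in either. Among those that rose, Col11a1 was tested through its knock-in libraries and had to be higher there. Col3a1, the single chain of type III collagen of compliant fibres, had the highest mean TPM of all collagen chains in each set of libraries, at 250.2 ± 97.3 TPM in knock-in 1, 2, 3 and 7 (SD, n = 4), 682 ± 348 TPM in knock-in 4, 5 and 6 (n = 3) and 84.5 ± 11.4 TPM in wild type (n = 6). In CPM after TMM scaling, the measure used below for single libraries, it stood at 896, 822, 763 and 1470.0 in knock-in 1, 2, 3 and 7, and at 2820.4, 1136 and 3650.1 in knock-in 4, 5 and 6. Wild type spanned 335 to 527 CPM with a median of 459.8. The groups did not overlap, with knock-in 7 above knock-in 5 and the 2 highest values in knock-in 4 and 6. Its change on the log2 scale was 1.88 ± 0.37 (SE; adjusted p = 0.00148) with 13 libraries and 1.14 ± 0.18 (adjusted p = 0.000237) with 10.

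Type I collagen, the stiff fibre of scar, is built from Col1a1 and Col1a2. Col1a1 reached 193, 196, 171 and 359 CPM in knock-in 1, 2, 3 and 7 and 1429, 574 and 2079 CPM in knock-in 4, 5 and 6. In wild type its lowest, median and highest values were 94.8, 104 and 109 CPM. Wild type was tight and every knock-in library lay above it, with a 12.1-fold spread between the highest and the lowest knock-in library. Its log2 rise was 2.80 ± 0.61 (adjusted p = 0.00307) with 13 libraries and 1.16 ± 0.17 (adjusted p = 0.000145) with 10. Col1a2 stood at 295, 329, 258 and 472 CPM in knock-in 1, 2, 3 and 7 and 1848, 641 and 2166 CPM in knock-in 4, 5 and 6, against 128 to 159 CPM (median 153) in wild type. Its log2 fold change was 2.53 ± 0.53 (adjusted p = 0.00221) with 13 libraries and 1.19 ± 0.14 (adjusted p = 3.48e-05) with 10.

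Type V collagen starts fibrils and limits their width. Col5a1 stood at 87.2, 101, 87.2 and 126 CPM in knock-in 1, 2, 3 and 7, at 138, 85.7 and 195 CPM in knock-in 4, 5 and 6, and at 55.4 to 63.5 CPM in wild type (median 60.3), a log2 fold change of 0.97 ± 0.18 (adjusted p = 0.000940) with 13 libraries and 0.74 ± 0.10 (adjusted p = 0.000106) with 10. Every knock-in library lay above wild type. Its partner Col5a2 had 174, 228, 139 and 213 CPM in knock-in 1, 2, 3 and 7, 485, 187 and 570.1 CPM in knock-in 4, 5 and 6, and 63.4 to 86.4 CPM in wild type (median 74.0). It rose by 1.96 ± 0.32 (adjusted p = 0.000384) and 1.36 ± 0.13 (adjusted p = 6.98e-06), with no overlap. Col5a3, the remaining type V chain, spanned 26.4 to 52.3 CPM in knock-in and 38.7 to 53.2 CPM in wild type, and its log2 difference of -0.28 ± 0.16 (adjusted p = 0.157) with 13 libraries and -0.07 ± 0.13 (adjusted p = 0.671) with 10 changed sign under TPM in both sets and under library totals with 10.

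Col11a1, a chain of type XI that joins type II fibrils in cartilage, was low in wild type, with 0.140, 0.328 and 1.01 CPM as its lowest, median and highest values. Knock-in 1, 2, 3 and 7 held 2.52, 2.81, 1.70 and 2.77 CPM, and knock-in 4, 5 and 6 held 201, 12.6 and 148 CPM. All knock-in libraries exceeded wild type, by little in 4 of them and by far in the other 3. On the log2 scale it rose by 7.00 ± 1.57 (adjusted p = 0.00362) with 13 libraries, a call lost on log2(TPM + 1) (1.97, adjusted p = 0.0546; adjusted p at most 0.0546 over its alternatives), and 2.57 ± 0.40 (adjusted p = 0.000208) with 10. Col2a1, the type II chain itself, had 5903 reads in knock-in 5, 479 in knock-in 6 and at most 10 in any other library, and was not tested. Col11a2, which also joins type XI, spanned 3.54 to 5.96 CPM in knock-in and 4.57 to 6.62 CPM in wild type and was not called. Its log2 differences of -0.24 and -0.12 changed sign under library totals and TPM in both sets.

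Among the minor fibrillar chains, Col27a1 rose by 0.67 ± 0.16 (adjusted p = 0.00511) and 0.75 ± 0.17 (adjusted p = 0.00359), with values of 16.6 to 29.0 CPM in knock-in that overlapped the 10.5 to 19.3 CPM of wild type. Col24a1 was below the filter, with 1 to 53 reads in knock-in libraries and 0 to 3 in wild type. Of 9 cartilage and tendon markers, 7 were tested and 5 rose with 13 libraries, where 23.6% of all genes rose. With 10 libraries 6 were tested and 4 rose, where 22.3% of all genes rose. In wild type, Acan and Tnmd of this list reached at most 0.391 and 0.354 CPM, below the 0.490 CPM at which the filter stands. They were tested through knock-in libraries, Acan with 13 libraries and Tnmd in both sets. Their rises in these counts were thus set by the filter, since they had to be higher there. The summed level of the 9 markers was 109 to 189 CPM in knock-in 1, 2, 3 and 7, 145 to 197 CPM in knock-in 4, 5 and 6, and 35.4 to 74.3 CPM in wild type. Fmod alone held 72.8 to 149.6 CPM in knock-in 1, 2, 3 and 7, 68.3 to 90.4 CPM in knock-in 4, 5 and 6, and 18.3 to 57.0 CPM in wild type. Cnmd was not called (log2 fold change -0.50 ± 0.38 with 13 libraries and -0.48 ± 0.47 with 10), nor was Chad, and Matn1 and Matn3 did not pass the filter. Fmod, Cnmd, Chad, Matn1, Matn3, Acan, Tnmd and Sox9 were named after their values were seen. Sox9, the transcription factor of chondrocytes, stood at 8.97 to 17.8 CPM in knock-in 1, 2, 3 and 7. It was at 34.7 to 85.5 CPM in knock-in 4, 5 and 6 and at 4.31 to 7.73 CPM in wild type. In the same order, Acan spanned 0.262 to 1.70, 0.647 to 5.18 and 0 to 0.391 CPM. Matn3, a cartilage matrilin, spanned 0 to 0.281, 0.0942 to 4.68 and 0 to 0.0652 CPM, and the matrilin Matn1 was at most at 0.305 CPM in any library. The part of these markers in the values of Col2a1, Col11a1, Col9a2 and Col10a1 was not tested.

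**Figure D2:**
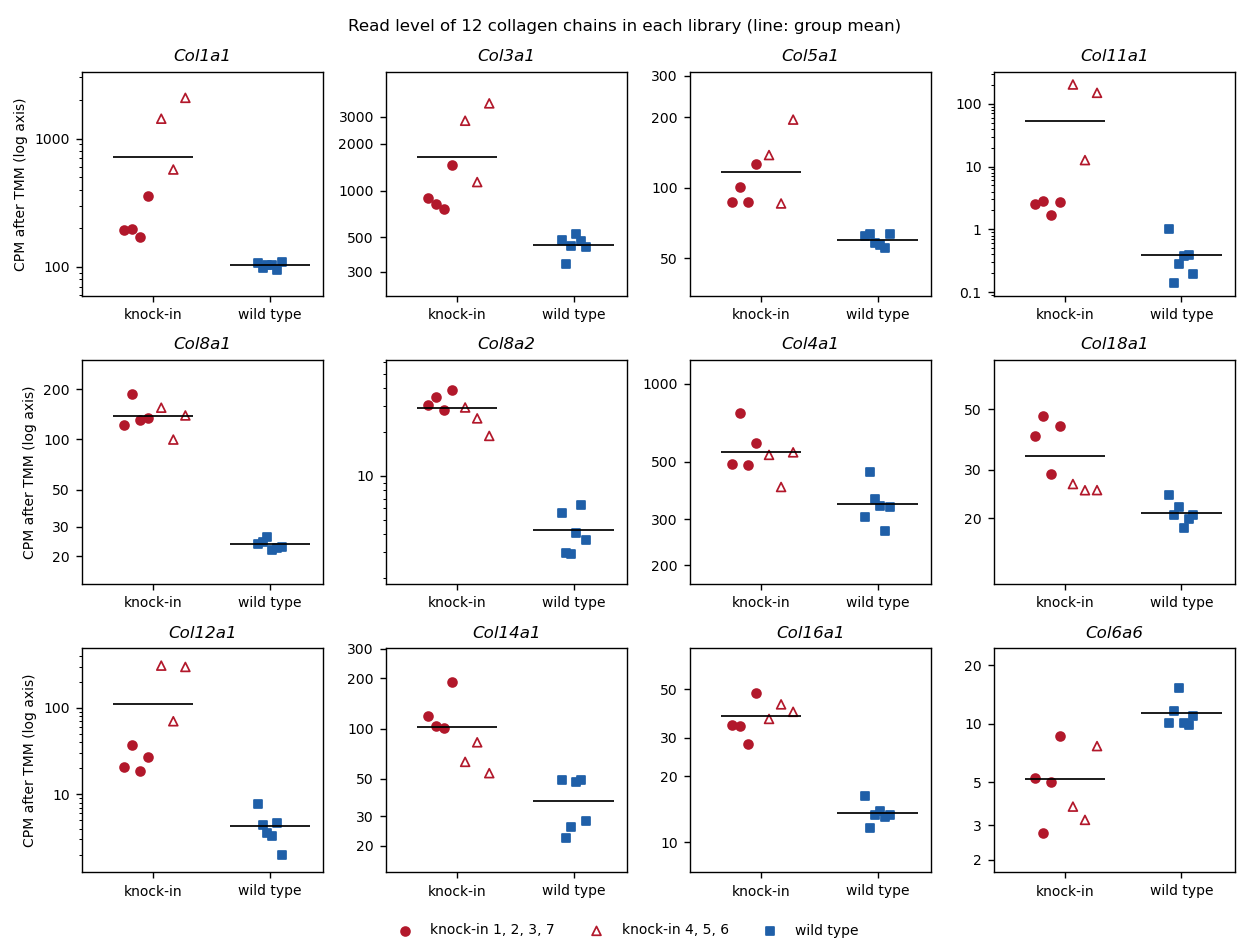
CPM after TMM scaling (log axis) of 12 collagen chains in each library, with knock-in 1, 2, 3 and 7 as filled circles, knock-in 4, 5 and 6 as open triangles, wild type as squares and the group mean as a line. Col8a1 and Col16a1 show both kinds of knock-in library at overlapping levels, while Col1a1, Col11a1 and Col12a1 split by kind and, of the 12 plotted, Col6a6 alone lies below wild type.

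Type VIII, a network collagen of vessel walls and subendothelial matrix, was higher in every knock-in library. Col8a1 stood at 123, 187, 129.8 and 133 CPM in knock-in 1, 2, 3 and 7 and at 155, 99.8 and 139 CPM in knock-in 4, 5 and 6. Wild type held 21.9 to 26.2 CPM with a median of 23.2. The lowest knock-in library was well above the highest wild-type one, and of the 3 libraries that stand apart, knock-in 4 and 6 fell among the other 4 and knock-in 5 below them. The fitted log2 change was 2.55 ± 0.13 (adjusted p = 1.11e-07) with 13 libraries, 5.85-fold, and 2.60 ± 0.11 (adjusted p = 1.06e-08) with 10. By p-value it ranked 1 of 14588 tested genes with 13 libraries and 2 of 14518 with 10.

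Col8a2, the partner chain of type VIII, had 30.8, 34.4, 28.3 and 38.9 CPM in knock-in 1, 2, 3 and 7, 29.4, 24.8 and 18.8 CPM in knock-in 4, 5 and 6, and 2.90 to 6.32 CPM in wild type (median 3.88). Again the groups were far apart, and knock-in 4, 5 and 6 lay toward the lower end of knock-in. Its log2 fold change was 2.78 ± 0.22 (adjusted p = 2.77e-06) with 13 libraries and 2.96 ± 0.19 (adjusted p = 4.49e-07) with 10, rank 15 in both sets. The remaining network chain, Col10a1 of hypertrophic cartilage, was above 3 reads in 3 libraries, with 3556 reads in knock-in 4, 329 in knock-in 5 and 1774 in knock-in 6. Knock-in 1 and wild type 5 had 1 read each and the rest none, below 3 reads, so Col10a1 was not tested and no fold is given.

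Chains of type IV, the collagen sheet of basement membranes, had a median log2 fold change of 0.50 with 13 libraries and 0.71 with 10, and 3 of them were called in 1 set alone. With 13 libraries 3 of 6 rose, with 10 libraries all 6 did. Col4a1 and Col4a2 assemble into the common type IV molecule. Col4a1 had 492, 772, 485 and 591 CPM in knock-in 1, 2, 3 and 7, 532, 400.1 and 544 CPM in knock-in 4, 5 and 6, and 270.3 to 457 CPM in wild type (median 336). Knock-in 5 overlapped the highest wild-type library, and no other knock-in library did. Its log2 fold change was 0.66 ± 0.15 (adjusted p = 0.00383) with 13 libraries and 0.77 ± 0.16 (adjusted p = 0.00159) with 10. Col4a2 had 274, 434, 288 and 355 CPM in knock-in 1, 2, 3 and 7, 291, 223 and 310.1 CPM in knock-in 4, 5 and 6, and 167 to 283 CPM in wild type (median 199), so that the groups overlapped. It rose by 0.55 ± 0.16 (adjusted p = 0.0119) and 0.67 ± 0.16 (adjusted p = 0.00343).

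Col4a3, Col4a4 and Col4a5 form the type IV molecule of the glomerular membrane, and Col4a5 also pairs with Col4a6. Col4a3 stood at 30.6, 27.5, 20.1 and 22.1 CPM in knock-in 1, 2, 3 and 7, at 13.7, 14.3 and 13.8 CPM in knock-in 4, 5 and 6, and at 8.81 to 13.7 CPM in wild type (median 10.7). The 3 libraries that stand apart sat at the upper edge of wild type and the other 4 above it. Its log2 rise was 0.90 ± 0.20 (adjusted p = 0.00333) with 13 libraries and 1.21 ± 0.14 (adjusted p = 2.17e-05) with 10. Col4a4 was also split between the kinds of knock-in library, at 26.4 to 47.3 CPM in knock-in 1, 2, 3 and 7, 18.1 to 19.9 CPM in knock-in 4, 5 and 6, and 14.9 to 23.7 CPM in wild type. Here knock-in 4, 5 and 6 lay inside the wild-type range and the other 4 above it. Col4a4 was not called with 13 libraries (0.44 ± 0.22, adjusted p = 0.108) and rose by 0.75 ± 0.16 (adjusted p = 0.00211) with 10.

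Col4a5 had 49.6, 52.4, 48.4 and 47.2 CPM in knock-in 1, 2, 3 and 7, 41.5, 32.5 and 57.6 CPM in knock-in 4, 5 and 6, and 36.7 to 42.9 CPM in wild type (median 38.7). It was not called with 13 libraries (0.25 ± 0.12, adjusted p = 0.0954) except without knock-in 5 (0.33, adjusted p = 0.0146) and under library totals and TPM (adjusted p between 0.00114 and 0.220 over its alternatives), and rose by 0.32 ± 0.07 (adjusted p = 0.00344) with 10. Col4a6 spanned 3.39 to 12.3 CPM in knock-in and 3.40 to 8.74 CPM in wild type. With 10 libraries its rise of 0.67 ± 0.24 (adjusted p = 0.0350) was lost in 7 of the 10 fits that left out 1 library. Those 7 left out wild type 2, 3, 4 or 6 or knock-in 1, 2 or 7, and over all its alternatives the adjusted p ran to 0.140.

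Of the chains in the basement membrane zone, Col18a1, the precursor of endostatin, rose in both sets. It stood at 40.0, 47.4, 29.0 and 43.3 CPM in knock-in 1, 2, 3 and 7, at 26.6, 25.3 and 25.3 CPM in knock-in 4, 5 and 6, and at 18.4 to 24.3 CPM in wild type (median 20.5). The groups did not overlap, and knock-in 4, 5 and 6 lay just above wild type. Its log2 fold change was 0.69 ± 0.16 (adjusted p = 0.00430) with 13 libraries and 0.94 ± 0.12 (adjusted p = 6.10e-05) with 10. Col15a1, its relative in muscle and capillary basement membranes, had 123, 107, 121 and 190.7 CPM in knock-in 1, 2, 3 and 7, 103, 108 and 130.0 CPM in knock-in 4, 5 and 6, and 95.4 to 119.6 CPM in wild type (median 102). It overlapped between groups and was not called with 13 libraries (0.28 ± 0.14, adjusted p = 0.105). With 10 libraries it rose by 0.39 ± 0.14 (adjusted p = 0.0350), which became 0.17 (adjusted p = 0.173) without knock-in 7 and was also lost without wild type 3, 5 or 6. Its adjusted p was at most 0.276 over its alternatives with 10 libraries.

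Col7a1, the chain of the anchoring fibrils of skin, held 1.36, 1.43, 1.05 and 1.19 CPM in knock-in 1, 2, 3 and 7, 8.76, 3.24 and 10.9 CPM in knock-in 4, 5 and 6, and 0.450 to 1.17 CPM in wild type (median 0.960). Its rise of 2.20 ± 0.62 (adjusted p = 0.0115) with 13 libraries was accompanied by a 6.06-fold higher mean in knock-in 4, 5 and 6 than in the other 4. With 10 libraries it was not called (0.53 ± 0.28, adjusted p = 0.141), nor with 13 when these 3 had a term of their own (adjusted p = 0.239, the highest over its alternatives). Col17a1, a transmembrane collagen of epithelial hemidesmosomes, had 58, 238 and 9 reads in knock-in 4, 5 and 6, 1 to 5 in knock-in 1, 2, 3 and 7 and 3 to 5 in wild type, and was below the filter. The part of the epithelial transcripts in both was not tested.

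FACIT collagens sit on fibril surfaces and do not form fibrils themselves. Of 8 chains, 7 were tested and 5 rose in both sets (Col9a2, Col12a1, Col14a1, Col16a1 and Col22a1), with the groups apart for all 5. Of these, Col9a2 was tested through its knock-in libraries and had to be higher there. Col22a1, with 3 wild-type libraries above the level of the filter, also needed knock-in libraries to pass in both sets. Col12a1 and Col14a1 bind type I fibrils in tendon, skin and other dense tissue. Col12a1 stood at 20.8, 37.6, 18.7 and 26.8 CPM in knock-in 1, 2, 3 and 7, at 309, 70.2 and 299 CPM in knock-in 4, 5 and 6, and at 1.99 to 7.73 CPM in wild type (median 3.98). Every knock-in library was above wild type, and the 3 that stand apart were above the other 4. The fitted log2 change was 4.70 ± 0.84 (adjusted p = 0.000896) with 13 libraries and 2.59 ± 0.30 (adjusted p = 6.72e-05) with 10.

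Col14a1 had the opposite division. It held 119, 103, 101 and 189.6 CPM in knock-in 1, 2, 3 and 7, 63.3, 82.8 and 54.2 CPM in knock-in 4, 5 and 6, and 22.1 to 49.6 CPM in wild type (median 37.9). Knock-in 4, 5 and 6 lay between wild type and the other 4. On the log2 scale it rose by 1.45 ± 0.30 (adjusted p = 0.00187) with 13 libraries and 1.79 ± 0.28 (adjusted p = 0.000536) with 10. Col16a1 showed no such division, with 34.3, 33.8, 28.1 and 48.3 CPM in knock-in 1, 2, 3 and 7, 36.6, 42.7 and 39.4 CPM in knock-in 4, 5 and 6, and 11.6 to 16.2 CPM in wild type (median 13.3). It rose by 1.47 ± 0.13 (adjusted p = 4.44e-06, rank 31) with 13 libraries and 1.42 ± 0.13 (adjusted p = 7.05e-06, rank 98) with 10.

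Col22a1, a collagen of the myotendinous junction, stood at 1.96 to 4.22 CPM in knock-in and 0.213 to 0.720 CPM in wild type. It rose by 2.57 ± 0.31 (adjusted p = 4.14e-05) and 2.46 ± 0.33 (adjusted p = 7.22e-05). Col9a2, a chain of type IX that coats type II fibrils in cartilage, held 1.74, 2.20, 1.11 and 1.02 CPM in knock-in 1, 2, 3 and 7 and 6.33, 18.4 and 143 CPM in knock-in 4, 5 and 6. Wild type spanned 0.0466 to 0.372 CPM (median 0.249), which is 1 to 7 reads per library. Values were higher in each knock-in library, most of all in knock-in 6. Its log2 rise was 6.80 ± 1.56 (adjusted p = 0.00423) with 13 libraries, 4.53 (adjusted p = 0.00141) without knock-in 6, and 2.76 ± 0.40 (adjusted p = 0.000135) with 10. With a term for knock-in 4, 5 and 6 its adjusted p was 0.0701, the highest over its alternatives. Its partner Col9a3 was not called (-0.05 ± 0.25 and -0.11 ± 0.31, with the sign turned by library totals in both sets), Col9a1 had at most 9 reads in any library, and Col20a1 was not called (0.16 ± 0.23 and 0.40 ± 0.21).

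**Figure D3:**
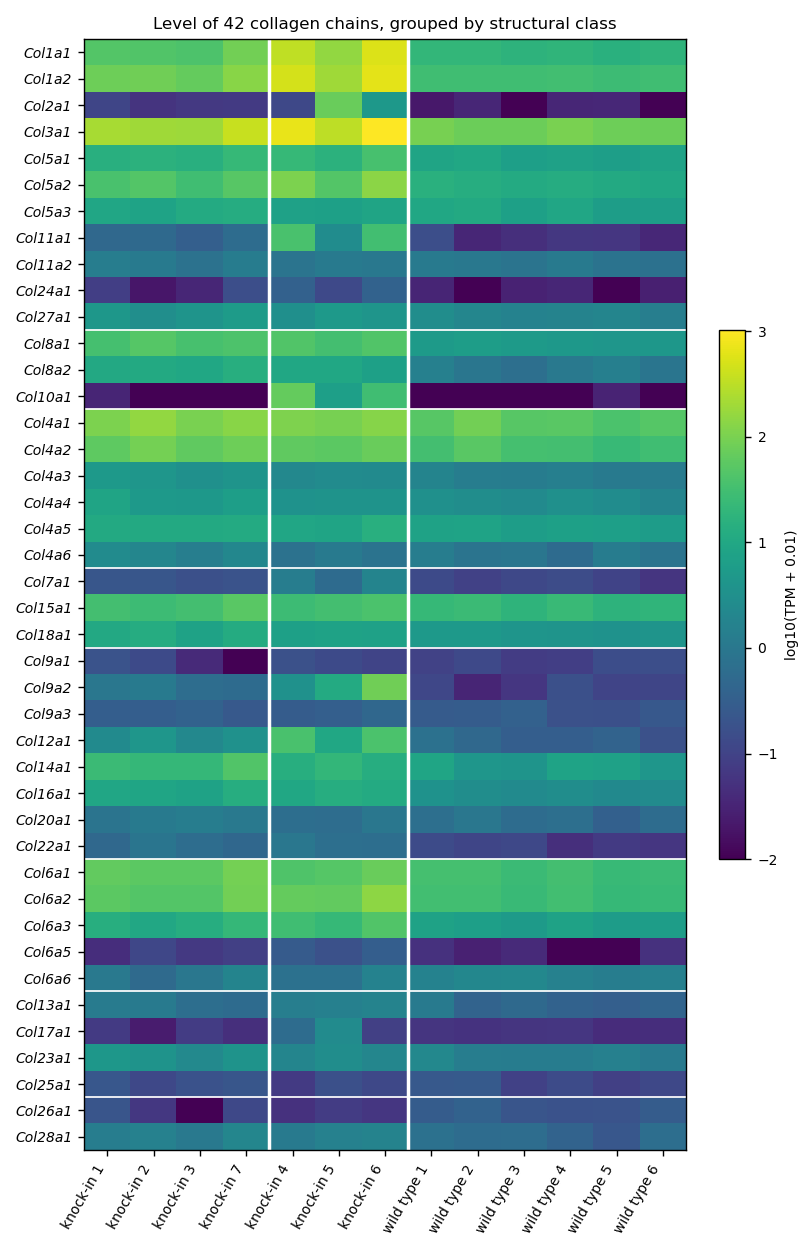
Log10 of TPM plus 0.01 of all 42 collagen chains (lines) in each library (columns), with structural classes divided by white lines and knock-in 1, 2, 3 and 7, knock-in 4, 5 and 6 and wild type set side by side. Col2a1, Col10a1, Col11a1 and Col9a2 brighten in knock-in 4, 5 or 6, where Col4a3, Col4a6 and Col14a1 are below the other knock-in libraries.

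Type VI, the beaded filament around cells, changed in both directions. Of 5 chains 4 were tested, of which 3 rose and 1 fell in both sets. Col6a1, Col6a2 and Col6a3 make up its usual molecule. Col6a1 stood at 181, 166, 160.3 and 243 CPM in knock-in 1, 2, 3 and 7, at 122, 119 and 187 CPM in knock-in 4, 5 and 6, and at 98.1 to 119.6 CPM in wild type (median 105). It rose by 0.64 ± 0.15 (adjusted p = 0.00384) and 0.80 ± 0.11 (adjusted p = 0.000124), with the lowest knock-in library within the wild-type range. Col6a2 had 156, 133, 133 and 226 CPM in knock-in 1, 2, 3 and 7, 185, 159 and 355 CPM in knock-in 4, 5 and 6, and 90.0 to 109 CPM in wild type, with no overlap, and rose by 0.97 ± 0.21 (adjusted p = 0.00226) and 0.72 ± 0.14 (adjusted p = 0.000868). Col6a3 had 92.0, 70.8, 88.6 and 137 CPM in knock-in 1, 2, 3 and 7, 205, 133 and 276 CPM in knock-in 4, 5 and 6, and 48.2 to 64.4 CPM in wild type, with no overlap. Its log2 fold change was 1.35 ± 0.28 (adjusted p = 0.00193) with 13 libraries and 0.79 ± 0.15 (adjusted p = 0.00102) with 10.

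Col6a6, an alternative alpha chain of type VI, was the tested collagen that fell. It held 5.23, 2.75, 4.98 and 8.59 CPM in knock-in 1, 2, 3 and 7, 3.74, 3.20 and 7.66 CPM in knock-in 4, 5 and 6, and 9.84 to 15.3 CPM in wild type (median 10.5). All knock-in libraries lay below all wild-type ones, as did 10.5% of all genes with 13 libraries and 15.0% with 10. The log2 fold change was -1.12 ± 0.25 (adjusted p = 0.00290) with 13 libraries and -1.04 ± 0.24 (adjusted p = 0.00357) with 10, and on log2(TPM + 1), a scale that understates changes of low genes, it was -0.42 with 13 and -0.41 with 10. Col6a5, the neighbouring alternative chain, shares reads with it: in 5 libraries both values were fractions that summed to whole reads, as 5.03 and 107.97 to 113 in knock-in 1. Col6a5 had 5.03 to 59 reads in knock-in and 0 to 7.02 in wild type, under the filter, so the division of reads between them is uncertain.

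Of 4 transmembrane chains 3 were tested, and 1, Col23a1, rose in both sets. It stood at 17.3, 15.0, 9.05 and 13.9 CPM in knock-in 1, 2, 3 and 7, at 7.45, 9.56 and 7.00 CPM in knock-in 4, 5 and 6, and at 5.54 to 10.6 CPM in wild type (median 6.66). The groups overlapped. Its rise of 0.61 ± 0.23 (adjusted p = 0.0456) with 13 libraries was lost in the 7 fits that left out wild type 2, 3, 4 or 6 or knock-in 1, 2 or 7 (adjusted p up to 0.0916, the highest over its alternatives). With 10 libraries it rose by 0.91 ± 0.19 (adjusted p = 0.00211). Col13a1, a collagen of the neuromuscular junction, spanned 1.12 to 3.20 CPM in knock-in and 0.885 to 2.83 CPM in wild type and was not called (0.70 ± 0.33, adjusted p = 0.0928, and 0.37 ± 0.36, adjusted p = 0.429). With 13 libraries it was called when wild type 1 was left out (1.04, adjusted p = 0.0135) and when knock-in 7 was (0.82, adjusted p = 0.0450), its adjusted p running between 0.0108 and 0.423 over its alternatives. Col25a1 was not called in either set (-0.44 ± 0.35 and -0.12 ± 0.34, the second turning positive under library totals).

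Col28a1, a collagen of peripheral nerve, had 3.88, 5.01, 3.15 and 5.54 CPM in knock-in 1, 2, 3 and 7, 3.27, 4.08 and 4.62 CPM in knock-in 4, 5 and 6, and 0.978 to 2.70 CPM in wild type (median 2.23). The groups did not overlap, and it rose by 1.04 ± 0.24 (adjusted p = 0.00400) and 1.10 ± 0.26 (adjusted p = 0.00401). Of 6 Schwann cell markers tested, 2 rose in each set, where 23.6% of all genes rose with 13 libraries and 22.3% with 10. These markers summed to 42.8 to 56.5 CPM in knock-in 1, 2, 3 and 7, 26.8 to 144.6 CPM in knock-in 4, 5 and 6, and 35.1 to 45.9 CPM in wild type. Their part in the Col28a1 result was not tested. Col26a1 ran the other way below the filter, with 0 to 8 reads in knock-in libraries and 8 to 17 in wild type. Fitted without the filter, its log2 fold change was -2.05 ± 0.52 (adjusted p = 0.00923) with 13 libraries and -1.71 ± 0.54 (adjusted p = 0.0224) with 10.

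The make-up of the collagen pool differed between the kinds of library. Fibrillar chains made up 47.3% ± 4.27 of collagen TPM in knock-in 1, 2, 3 and 7 (SD, n = 4), 71.9% ± 6.57 in knock-in 4, 5 and 6 (n = 3) and 43.8% ± 3.44 in wild type (n = 6). Network chains took 5.39% ± 1.02 in knock-in 1, 2, 3 and 7, 3.87% ± 1.39 in knock-in 4, 5 and 6 and 1.64% ± 0.134 in wild type. The lowest knock-in library, knock-in 6, had 2.53% and the highest wild-type one 1.84%. Col10a1, which was not tested, held 2.93%, 0.522% and 0.917% of collagen TPM in knock-in 4, 5 and 6, and at most 0.00662% elsewhere. With Col10a1 set aside, the network share of knock-in 6 lay within the wild-type range. Those of the other knock-in libraries stayed above it. Type IV took 22.8% ± 4.77 in knock-in 1, 2, 3 and 7, 9.39% ± 3.16 in knock-in 4, 5 and 6 and 26.9% ± 4.26 in wild type. Type VI took 14.5% ± 1.49 in knock-in 1, 2, 3 and 7, 8.36% ± 2.23 in knock-in 4, 5 and 6 and 17.3% ± 0.630 in wild type. FACIT chains took 4.45% ± 0.283 in knock-in 1, 2, 3 and 7, 4.01% ± 0.975 in knock-in 4, 5 and 6 and 2.78% ± 0.605 in wild type. Since shares sum to the whole, a higher share of 1 class lowers the others. In wild type the order by mean TPM was Col3a1 (84.5 ± 11.4), Col4a1 (55.2 ± 16.0), Col4a2 (34.8 ± 10.3), Col6a1 (29.4 ± 4.54) and Col1a2 (29.4 ± 1.53), and the mean ± SD intervals of neighbours overlapped below Col3a1. Within single libraries, Col4a1 was above Col4a2 in every wild-type library, and above Col3a1 in wild type 2 (85.9 against 75.1 TPM). In knock-in 1, 2, 3 and 7 it was Col3a1 (250.2 ± 97.3), Col4a1 (122 ± 26.2), Col1a2 (90.2 ± 28.5), Col4a2 (72.4 ± 15.0) and Col6a1 (67.2 ± 16.2), where neighbours again overlapped below Col3a1. In knock-in 4, 5 and 6 it was Col3a1 (682 ± 348), Col1a2 (437 ± 224), Col1a1 (345 ± 194) and Col4a1 (110.3 ± 15.0), with Col4a1 apart from the 3 above it. The intervals of those 3 overlapped, but within each of these libraries Col3a1 was above Col1a2 and Col1a2 above Col1a1.

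**Figure D4:**
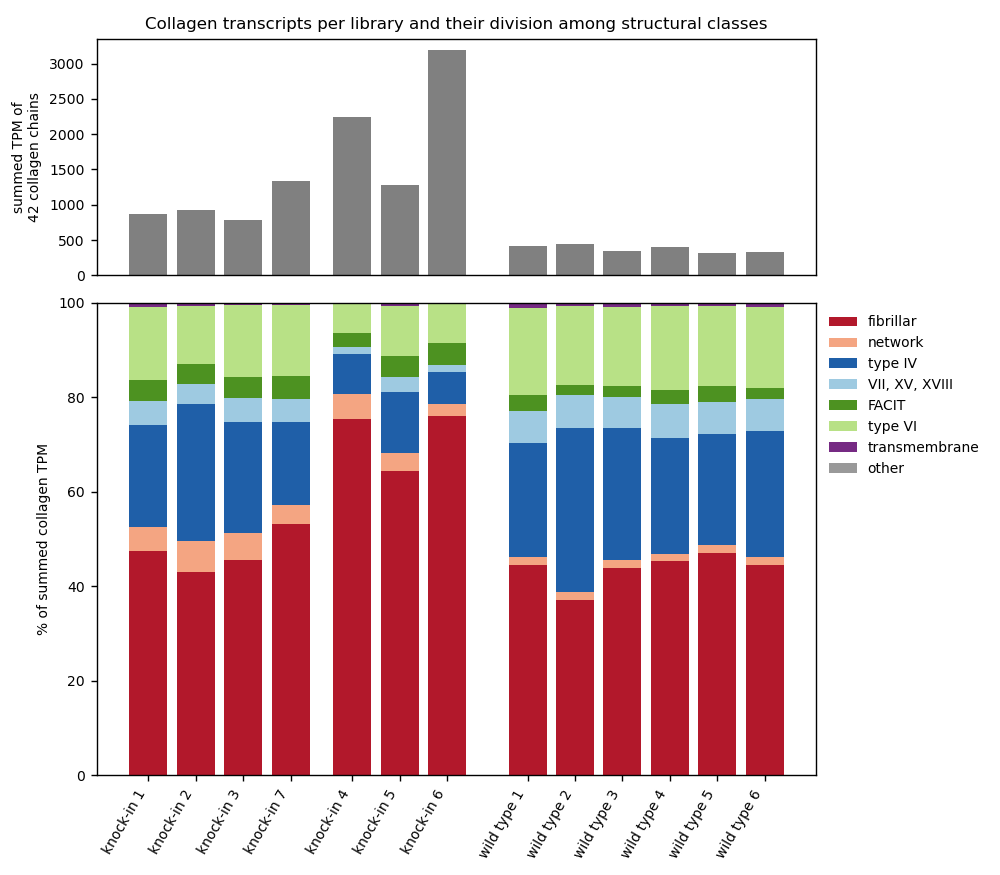
Summed TPM of the 42 collagen chains in each library (top) and the percentage of that sum held by each structural class (bottom). Knock-in libraries sum to 777 to 3188 TPM and wild type to 317 to 439 TPM, and the fibrillar share is 64.3% to 75.9% in knock-in 4, 5 and 6 and at most 53.1% elsewhere.

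Ratios of chains within a library, taken in TPM, show the balance between partners and do not depend on library scaling. For 6 ratios the exact permutation test over libraries was used, two-sided, with adjustment over the 6; the smallest p it can give is 0.000583 with 13 libraries and 0.00476 with 10. Col1a1 to Col1a2 averaged 0.680 ± 0.117 in knock-in and 0.627 ± 0.0527 in wild type (SD, n = 7 and 6), a log2 difference of 0.10 (exact p = 0.368, adjusted 0.368), and -0.062 (adjusted 0.543) with 10 libraries. Col5a1 to Col1a1 was 0.251 to 0.364 in knock-in 1, 2, 3 and 7, 0.0665 to 0.106 in knock-in 4, 5 and 6, and 0.395 to 0.466 in wild type, with no overlap. Its log2 difference was -1.25 (exact p = 0.0122, adjusted 0.0367) with 13 libraries and -0.38 (exact p = 0.00476, adjusted 0.0286) with 10, lower in 7 of 7 knock-in libraries. With 13 libraries the adjusted p rose above 0.05 when any of the 6 wild-type libraries was left out (0.0947 to 0.129) and ran between 0.0130 and 0.129 over its alternatives.

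Col4a1 to Col4a2 averaged 1.71 ± 0.0564 in knock-in and 1.59 ± 0.0478 in wild type. Ranges met, 1.63 to 1.79 in knock-in and 1.52 to 1.66 in wild type, and the log2 difference was 0.11 (exact p = 0.00466, adjusted 0.0280), or 0.084 (exact p = 0.0238, adjusted 0.0667) with 10 libraries. Col3a1 to Col1a1 was 4.34 to 4.88 in knock-in 1, 2, 3 and 7 and 1.88 to 2.10 in knock-in 4, 5 and 6, against 3.63 to 5.36 in wild type. That difference did not pass (-0.51, exact p = 0.119, adjusted 0.239) and was near 0 with 10 libraries (exact p = 0.981). Col6a1 to Col6a2 was split the same way, at 1.06 to 1.23 in knock-in 1, 2, 3 and 7, 0.513 to 0.747 in knock-in 4, 5 and 6 and 1.03 to 1.10 in wild type, and did not pass (-0.27, adjusted 0.318, and 0.11, adjusted 0.0667, by the exact test). Col8a1 to Col8a2 spanned 3.06 to 6.43 in knock-in and 3.00 to 7.85 in wild type (-0.27, exact test adjusted 0.354, and -0.42, adjusted 0.286).

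**Figure D5:**
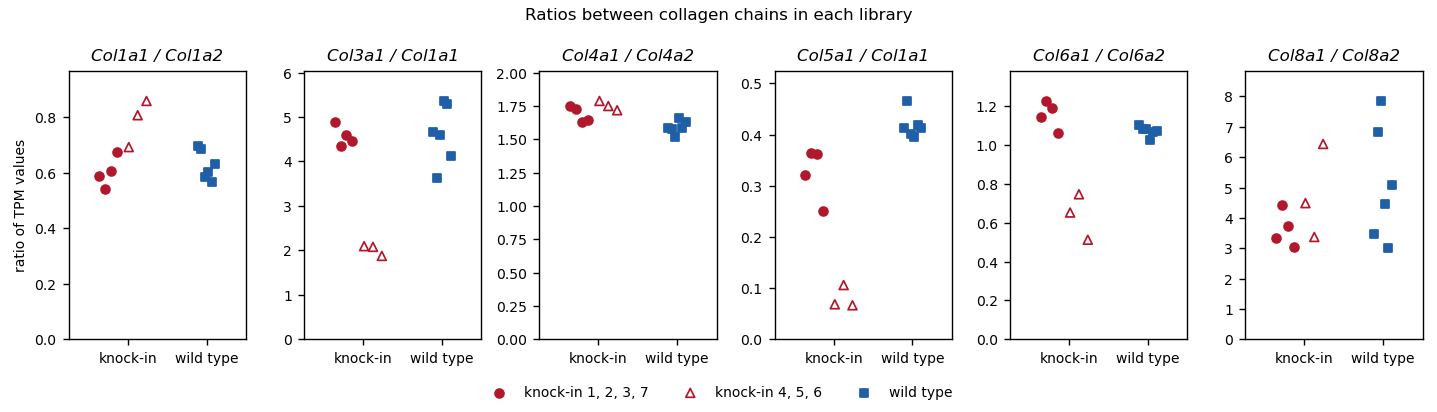
Ratio of TPM values of 6 pairs of collagen chains in each library, with knock-in 1, 2, 3 and 7 as circles, knock-in 4, 5 and 6 as triangles and wild type as squares. Knock-in 4, 5 and 6 reach at most 2.10 for Col3a1 to Col1a1 and 0.106 for Col5a1 to Col1a1, apart from all other libraries, but not for Col8a1 to Col8a2.

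Knock-in libraries varied widely among themselves for some chains and little for others. Between the highest and the lowest of the 7, Col8a1 differed 1.87-fold and Col16a1 1.72-fold, but Col1a1 12.1-fold, Col11a1 118-fold and Col9a2 141-fold. The mean of knock-in 4, 5 and 6 was at least 2 times that of knock-in 1, 2, 3 and 7 for 9 tested chains and below it for 20. All of knock-in 4, 5 and 6 lay above the other 4 for Col1a1, Col1a2, Col11a1, Col7a1, Col9a2, Col12a1 and Col13a1, and all below them for Col5a3, Col4a3, Col4a4, Col4a6, Col18a1 and Col14a1. How many of all genes split in these ways was not counted, so the counts do not set the collagen chains apart from other genes. Of the 35 tested chains, 12 were highest in knock-in 6, 9 in knock-in 7, 6 in knock-in 1 and 0 in knock-in 5. Among the 4 libraries that do not stand apart, knock-in 7 was highest for 15 chains and knock-in 3 for 2.

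Genes that act on collagen after its transcription rose more often than they fell; fold changes given for them are with 13 libraries unless said. Of 62 such genes, 58 were tested, with 39 higher and 2 lower at 13 libraries and 37 higher and 3 lower at 10. Over all genes, 23.6% were called higher and 21.0% lower with 13 libraries, and 22.3% and 21.3% with 10. The counts of the single lists below are small beside these shares. Among 15 hydroxylases and their partners, which modify prolines and lysines of the nascent chain, 1 (P3h4) fell in both sets, and 12 rose with 13 libraries and 10 with 10. P4ha3, a catalytic subunit of prolyl hydroxylase, averaged 4.32 ± 1.50 CPM in knock-in and 0.308 ± 0.310 CPM in wild type (log2 fold change 3.76 ± 0.53 with 13 libraries, adjusted p = 0.000132). Its wild-type mean was below the 0.490 CPM at which the filter stands, and all its knock-in libraries were above it, so it was tested through knock-in and had to be higher there. P3h3 averaged 44.3 ± 9.58 CPM in knock-in and 22.9 ± 2.92 CPM in wild type (0.95 ± 0.15, adjusted p = 0.000223). P3h4, which fell, averaged 31.9 ± 3.55 CPM in knock-in and 48.3 ± 3.34 CPM in wild type (-0.60 ± 0.09, adjusted p = 0.000250), and was chosen after its values were seen, as were Sec23a and Tll2 below. Of 9 genes for chaperones and export, 4 rose with 13 libraries, and 3 rose and 1 (Sec23a) fell with 10. Sparc, a collagen-binding matrix protein, averaged 903 ± 259 CPM in knock-in and 383 ± 31.5 CPM in wild type (1.24 ± 0.17, adjusted p = 0.000115), and the chaperone Fkbp10 42.6 ± 14.1 CPM in knock-in and 25.4 ± 1.20 CPM in wild type (0.75 ± 0.18, adjusted p = 0.00553). Serpinh1, the collagen chaperone HSP47, was not called in either set (0.29 ± 0.12, adjusted p = 0.0529, and 0.33 ± 0.13, adjusted p = 0.0576).

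Of 10 genes for propeptide cleavage, 8 were tested, and 5 rose and 1 (Tll2) fell in both sets. Tll2 averaged under the level of the filter in knock-in and was tested through wild type, where it had to be higher. Adamts2, which removes the amino propeptide, averaged 79.2 ± 18.2 CPM in knock-in and 32.1 ± 3.42 CPM in wild type (1.30 ± 0.15, adjusted p = 3.04e-05), and Pcolce2, an enhancer of carboxyl propeptide cleavage, 64.3 ± 15.7 CPM in knock-in and 36.2 ± 5.45 CPM in wild type (0.83 ± 0.17, adjusted p = 0.00140). Of 6 crosslinking genes, 5 rose with 13 libraries and 6 with 10. The lysyl oxidase Lox averaged 65.8 ± 28.2 CPM in knock-in and 13.9 ± 3.09 CPM in wild type (2.24 ± 0.25, adjusted p = 2.81e-05), and Loxl3 30.6 ± 9.10 CPM in knock-in and 8.54 ± 0.749 CPM in wild type (1.84 ± 0.17, adjusted p = 6.31e-06). Of 11 collagen receptors, 10 were tested, of which 5 rose with 13 libraries and 7 with 10, among them the integrin subunit Itga11 (1.41 ± 0.24, adjusted p = 0.000490) and the endocytic receptor Mrc2 (1.11 ± 0.12, adjusted p = 1.56e-05). Of 11 genes for collagen breakdown and its inhibitors, 10 were tested, of which 8 rose with 13 libraries and 6 with 10. The gelatinase Mmp2 averaged 192.8 ± 70.1 CPM in knock-in and 75.7 ± 5.06 CPM in wild type (1.35 ± 0.19, adjusted p = 0.000139), and Timp1, an inhibitor of metalloproteinases, 23.7 ± 6.70 CPM in knock-in and 3.25 ± 1.38 CPM in wild type (2.86 ± 0.26, adjusted p = 6.57e-06). The 12 genes named by rule were also called with 10 libraries, with log2 fold changes between 0.33 (Fkbp10) and 3.63 (P4ha3).

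Marker lists of other cell types gave calls in some lists and none in others. Among all genes, 23.6% were called higher and 21.0% lower with 13 libraries, and 22.3% and 21.3% with 10. Of 10 fibroblast markers, 1 fell in both sets, and 3 rose with 13 libraries and 7 with 10. Their summed level was 6576 to 8135 CPM in knock-in 1, 2, 3 and 7, 4592 to 4761 CPM in knock-in 4, 5 and 6, and 4361 to 6119 CPM in wild type. All 8 markers of matrix-producing fibroblasts rose with 13 libraries and 6 with 10, and they summed to 1276 to 1995 CPM in knock-in 1, 2, 3 and 7, 1773 to 2070 CPM in knock-in 4, 5 and 6, and 298 to 491 CPM in wild type. Cardiomyocyte markers fell, 8 of 8 with 13 libraries and 7 of 8 with 10. Of 8 endothelial markers 0 were called with 13 libraries and 3 rose with 10. Of 8 mural markers 3 rose in each set, whereas 2 fell with 13 libraries and 1 with 10. Of 8 macrophage markers 5 rose with 13 libraries and 7 with 10, summing to 569 to 860 CPM in knock-in 1, 2, 3 and 7, 439 to 501 CPM in knock-in 4, 5 and 6, and 379 to 484 CPM in wild type. Of 5 mesothelial markers 0 were called in either set. All 4 tested epithelial markers rose with 13 libraries and none with 10. Fap was both a marker of matrix-producing fibroblasts and among the breakdown genes. The part of cell composition in the collagen values was not tested.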

How the data were processed

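RNA from right ventricles was prepared as a stranded poly(A) library, per the labels' protocols, and processed with DRAGEN on GRCm39 (mm39), per the submitters' processing notes; no annotation, strand setting or version is named in the sources used here. Per the file headers, each deposited table holds estimated counts (NumReads), TPM and effective length for 26264 genes.

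The estimated counts deposited by the authors were rounded. After filterByExpr (count minimum 10) and TMM scaling, the genotypes were compared with edgeR 4.0.16 (R 4.3.3), using its quasi-likelihood test with Benjamini-Hochberg adjustment over all tested genes at 0.05. CPM is the read count scaled to the TMM-adjusted library total, unless library totals are named. The fit was made on 13 libraries and again on 10 without knock-in 4, 5 and 6. The fitting code was tested on simulated data. TPM ratios were compared on the log2 scale by the exact permutation test (scipy 1.17.1). Alternatives were DESeq2 1.42.0, its size factors, library totals, no filter, limma 3.58.1 on log2(TPM + 1) and log2(TPM + 0.1) for genes of mean TPM at least 0.5, a length offset, a replicate block, a term for knock-in 4, 5 and 6, leaving out each library and, chosen after the data were seen, the paired libraries with the block left off. No library pair agreed within sampling noise (lowest chi-square per degree of freedom 7.52).

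Named chains were the 3 of each class with the highest mean TPM and those with the largest called changes, and named genes of the collagen machinery the 2 of each list with the smallest p; other chains were described to account for every member. The members and lists were chosen with earlier results of these data known.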

Additional observations from a re-analysis of the deposited data

Results flagged for a closer look

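Over 84 groups of values (each tested chain, Dsg2 and each ratio, in knock-in and in wild type), 8 had 1 library far from the others by Dixon's test, of which chance gives about 1 in 20 groups. In knock-in, Col9a2 stood at 143 CPM in replicate 6 against 1.02 to 18.4 CPM in the others, Col6a2 at 355 CPM in replicate 6 against 133 to 226 CPM, and Col15a1 at 190.7 CPM in replicate 7 against 103 to 130.0 CPM. The ratio of Col8a1 to Col8a2 was 6.43 in knock-in 6 and 3.06 to 4.49 in the other knock-in libraries. In wild type, Col11a1 stood at 1.01 CPM in replicate 1 against 0.140 to 0.391 CPM, Col13a1 at 2.83 CPM in replicate 1 against 0.885 to 1.56 CPM, and Col6a6 at 15.3 CPM in replicate 3 against 9.84 to 11.6 CPM. The ratio of Col5a1 to Col1a1 was 0.466 in wild type 2 and 0.395 to 0.418 in the other wild-type libraries.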

How the results depend on the processing

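Calls that changed with a setting have their cause not tested. Without the filter, 2 chains were called lower in each set, the second being Col26a1. Leaving out 1 library gave 23 to 26 chains higher and 1 lower with 13 libraries, and 25 to 27 higher and 1 to 2 lower with 10 (Col26a1 entered the test and fell when any knock-in library was left out). Col26a1 reached the level of the filter in 4 wild-type and 0 knock-in libraries. It was thus tested through wild type and had to be lower in knock-in. Over the fits that left out 1 library, calls over all genes ran between 5490 and 6830 with 13 libraries and between 5178 and 6739 with 10. The labels number replicates in both groups, but same-numbered libraries did not deviate together (r between -0.113 and 0.085 for 6 pairs, none highest with its own number). A fit with the number as a replicate block keeps paired libraries alone. With 13 it leaves out knock-in 7, and called 4777 genes, against 6413 in the same libraries without the block and 6502 in all 13. With 10 it keeps 3 libraries a group, and called 2776, against 2310 in those without the block, a fit added after seeing the data, and 6340 in all 10. Calls of single chains lost in the blocked fit were lost in the same libraries without the block too. They were Col23a1 with 13 (adjusted p = 0.0729 with the block, 0.0769 without) and, with 10, Col4a5 (0.0584 and 0.0525), Col4a6 (0.0925 and 0.140), Col15a1 (0.257 and 0.276) and Col28a1 (0.120 and 0.0850). In those 3 libraries a group, without the block, Col27a1 (0.146), Col4a1 (0.0874), Col4a2 (0.146) and Col23a1 (0.0815) were not called either.

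Among ratios, Col4a1 to Col4a2 lost its call with 10 libraries (0.084). Within the 6 pairs, which leave out knock-in 7, it was 0.12 and Col5a1 to Col1a1 -1.34, both at the smallest p that an exact sign-flip test of 6 pairs can give (0.0312, 0.0938 adjusted over 6 ratios), so the replicate block could not pass the threshold there. Col1a1 to Col1a2 and Col6a1 to Col6a2 turned sign with 10 libraries (-0.062 and 0.11). Leaving out 1 library gave 0.04 to 0.15 for Col1a1 to Col1a2, -0.61 to -0.38 for Col3a1 to Col1a1, 0.09 to 0.12 for Col4a1 to Col4a2, -1.43 to -1.02 for Col5a1 to Col1a1, -0.35 to -0.14 for Col6a1 to Col6a2 and -0.41 to -0.13 for Col8a1 to Col8a2.

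Signs turned for 4 chains without a call. With 13 libraries, Col5a3 was 0.13 on log2(TPM + 1) and 0.15 on log2(TPM + 0.1), Col11a2 was 0.0072 under library totals, 0.094 on log2(TPM + 1) and 0.17 on log2(TPM + 0.1), and Col9a3 was 0.20 under library totals and 0.045 under the block. With 10, under library totals Col5a3 was 0.17, Col11a2 0.13, Col9a3 0.13 and Col25a1 0.11, and on the 2 TPM scales Col5a3 was 0.30 and 0.33 and Col11a2 0.13 and 0.23. Leaving out 1 library gave -0.14 to 0.15 for Col9a3 with 13 libraries and, with 10, -0.17 to 0.012 for Col5a3, -0.20 to 0.013 for Col11a2, -0.21 to 0.046 for Col9a3 and -0.25 to 0.074 for Col25a1.

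Calls gained were Col4a4, Col4a6 and Col15a1 with a term for knock-in 4, 5 and 6 (13 libraries, adjusted p = 0.0390 for Col4a6); Col4a4, Col4a5, Col15a1 and Col13a1 under library totals and TPM with 13 libraries, and Col7a1 (library totals) and Col20a1 (library totals and TPM) with 10. Low chains are limited by depth: 3 reads are 0.101 to 0.207 CPM, and wild type held 1 to 7 reads of Col9a2.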
